A study of Mus musculus with 5 samples.

Results

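Secretory and membrane proteins fold in the endoplasmic reticulum (ER), and cells adjust the folding machinery to the load through the unfolded protein response. The genes described here are 37 genes of this response, chosen by symbol: 5 for the stress sensors and the transcription factor Xbp1, 7 for the ATF4 branch, 16 for folding, and 9 for degradation and translocation. Values were obtained for 36 of them, among 22180 genes in all. Pdia4, a protein disulfide isomerase of the folding group, is named only on an array feature shared with a microRNA gene and was left without a value. Ero1l is carried under its current symbol, Ero1a.

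The samples were 5 arrays of RNA from hematopoietic stem cells (HSCs), the bone marrow cells that renew all blood lineages. Cultures of C57BL/6 stem and progenitor cells were kept for 24 h with 5 µM all-trans retinoic acid (ATRA, the active form of vitamin A; 2 arrays) or with its solvent DMSO (3 arrays), and HSCs were sorted by flow cytometry after the culture. The labels give no further genotype, age or sex and do not say whether replicates came from separate cultures or animals. What the p-values weigh is thus the spread among these 5 samples, and that spread may be technical.

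The stress sensors sit in the ER membrane. IRE1 (gene Ern1) splices the messenger RNA of Xbp1, ATF6 is cleaved to release a transcription factor, and PERK (gene Eif2ak3) phosphorylates the initiation factor eIF2-alpha, which slows translation but favours that of ATF4. XBP1 and ATF6 raise chaperones and degradation factors, and ATF4 raises amino acid and cell death genes such as Ddit3. HSCs are known for a low rate of protein synthesis, and in human blood stem cells the PERK branch is known to favour cell death under ER stress. The arrays measure transcript amounts, and neither Xbp1 splicing nor phosphorylation nor cleavage of the sensors.

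Promoter sequences are shown first, because the ER stress element, ERSE, is the site through which ATF6 and XBP1 are known to raise chaperone genes. RefSeq promoters (build GRCm38.p6, 250 bases before to 50 bases after the annotated start) were found for 32 of the 37 genes. ERSE was searched on both strands as CCAAT and CCACG with 9 free bases between them. It occurred in 9 of these 32 genes (28.1%), against 37 of all 27025 genes with a promoter (0.137%), the 9 included. Of the 14 folding genes with a promoter, 7 held it, as did 2 of the 8 degradation and translocation genes, 0 of the 4 sensor genes and 0 of the 6 genes of the ATF4 branch. The matches are given 5′ to 3′ on the strand of the gene, with the element in capitals, in its forward or reverse form. Coordinates are 1-based.

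Hspa5 (chr2:34772013-34772055, plus strand): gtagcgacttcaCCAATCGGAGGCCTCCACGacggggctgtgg
Hsp90b1 (chr10:86705521-86705563, minus strand): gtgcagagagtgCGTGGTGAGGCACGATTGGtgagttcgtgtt
Hsp90b1 (chr10:86705626-86705668, minus strand): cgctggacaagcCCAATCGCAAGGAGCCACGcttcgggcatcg
Calr (chr8:84847063-84847105, minus strand): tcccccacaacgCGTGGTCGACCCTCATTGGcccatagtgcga
Canx (chr11:50325788-50325830, minus strand): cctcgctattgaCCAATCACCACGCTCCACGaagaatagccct
Pdia6 (chr12:17266479-17266521, plus strand): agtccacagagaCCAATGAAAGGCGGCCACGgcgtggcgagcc
Dnajc3 (chr14:118937815-118937857, plus strand): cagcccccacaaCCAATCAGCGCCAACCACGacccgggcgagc
Creld2 (chr15:88819508-88819550, plus strand): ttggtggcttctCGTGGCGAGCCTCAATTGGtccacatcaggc
Syvn1 (chr19:6046520-6046562, plus strand): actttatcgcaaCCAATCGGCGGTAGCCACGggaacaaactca
Derl3 (chr10:75893230-75893272, plus strand): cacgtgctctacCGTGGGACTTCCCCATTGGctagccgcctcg

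The first base of the element lay 65 bases before the annotated start in Hspa5, 98 in Pdia6, 162 in Calr and 44 in Syvn1, and Hsp90b1 held it at 107 and 212 bases. Shorter elements were searched in the same way. The ERSE-II element, ATTGG and CCACG with 1 free base between them, was found in 2 of the 32 genes, Herpud1 and Dnajb11 (0.0444% of all genes with a promoter). The XBP1 element TGACGTGG was found in 1, Vcp (0.714%). The ATF4 element TGATGCAA, whose reverse form is TTGCATCA, was found in 2, Chac1 and Herpud1 (1.03%). In Herpud1, a degradation gene reached by both routes in the textbook scheme, and in Chac1, a target of ATF4, the matches read as follows.

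Herpud1 (chr8:94386365-94386399, plus strand): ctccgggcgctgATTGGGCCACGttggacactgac
Herpud1 (chr8:94386305-94386336, plus strand): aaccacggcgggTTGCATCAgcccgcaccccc
Chac1 (chr2:119351037-119351068, plus strand): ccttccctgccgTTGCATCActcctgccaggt

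**Figure D1:**
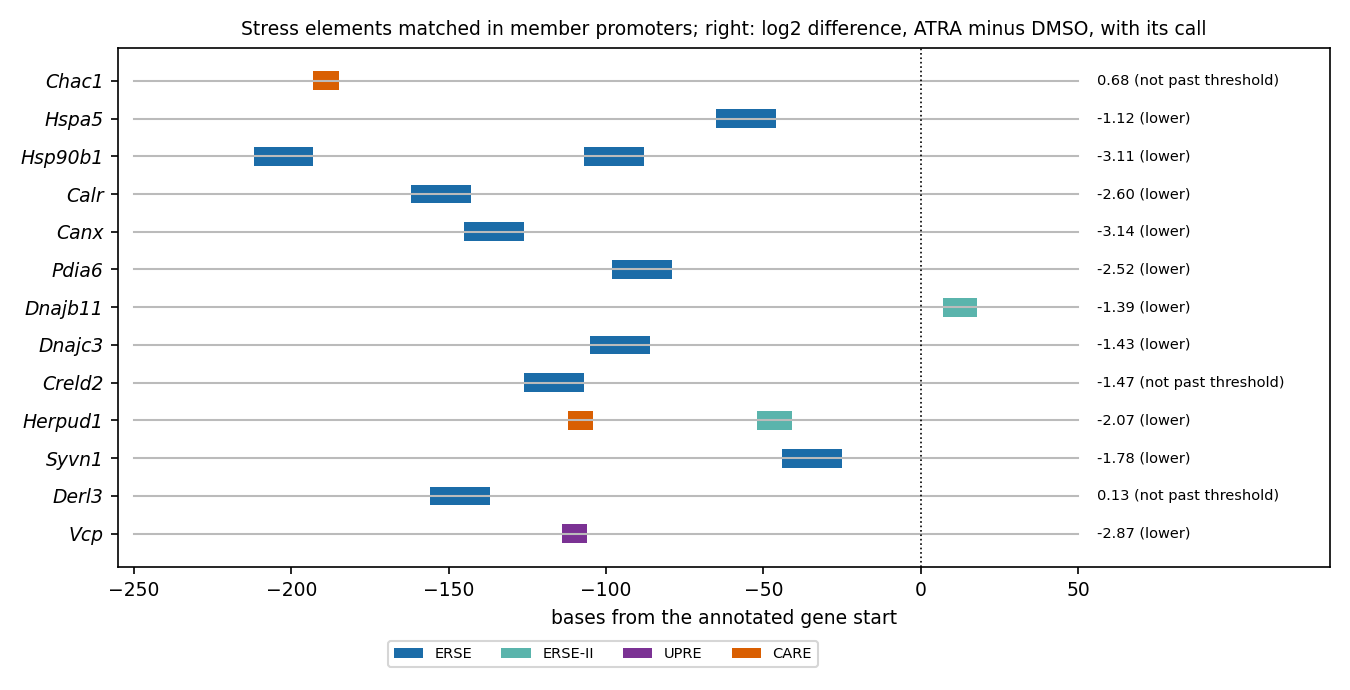
Positions of the 4 elements (bars) in the promoters of the 13 genes that hold one, in bases from the annotated start, with the log2 difference of ATRA minus DMSO and its call at the right. Of the 9 genes with ERSE, 7 were lower with ATRA. The share was 15.5% over all genes and 53.4% over genes with a DMSO mean of 9 or more.

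A match says that these letters are present, not that a factor binds there. The shares of genes that fell with ATRA (lower at a limma adjusted p under 0.05, Benjamini-Hochberg over all genes) were set beside the matches. Of the 9 ERSE genes, 7 fell with ATRA and 0 rose, with a median log2 difference of -1.78, and of the 22 measured genes whose promoter lacked it, 10 fell and 0 rose, with a median of -1.38. Over all genes, 15.5% fell and 6.48% rose. Of the ERSE genes, Hsp90b1, Canx, Calr, Creld2, Hspa5 and Pdia6 had a DMSO mean of 9 or more. At that level 53.4% of all genes fell. With the trend on level described below removed, 0 of the 36 genes passed (limma). A link between the element and these differences was not tested.

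The arrays differed in more than a few genes, which bears on every value above and below. The SD over all features was 1.77 and 1.49 in ATRA replicates 1 and 2, against 1.96 to 1.97 in the DMSO arrays. Pearson's r across features (not independent replicates) was 0.730 between the ATRA arrays, 0.811 to 0.834 between ATRA replicate 1 and the DMSO arrays, 0.602 to 0.641 for replicate 2, and 0.966 to 0.978 among DMSO arrays. Features bright in DMSO were lower in both ATRA arrays: genes with a DMSO mean of 9 or more had a median log2 difference of -2.03, and the others of 0.23. A second version of each value, with this trend on level removed by a lowess curve per array, is therefore given beside the deposited one. Summed over the features of 11 measured HSC markers, the unlogged values were 1321 to 3405 in ATRA and 7711 to 8157 in DMSO, and Kit, Hlf, Gata2, Mecom, Fgd5 and Tek passed as lower, while 0 of the 11 passed with the level trend removed (limma, median -0.57). Markers of plasma cells, which carry a large ER, had sums of 795 to 1016 in ATRA and 913 to 1027 in DMSO, with 1 of 8 higher (Tnfrsf17) and 0 lower. That list also contains the ER genes Derl3 and Fkbp11. Fkbp11, with a DMSO mean of 8.94, had a log2 difference of -1.27 (not past the threshold). Without Fkbp11, but with Derl3 kept, the sums were 479.8 to 717 in ATRA and 440.5 to 466 in DMSO. They were then higher in both ATRA arrays, so the direction of this sum depends on 1 gene. B and T cell markers had sums of 362 to 644 in ATRA and 302 to 332 in DMSO (0 of 7 called), and neutrophil and monocyte markers 824 to 1133 in ATRA and 758 to 926 in DMSO (1 of 11 higher, S100a9). Of 5 erythroid and megakaryocyte markers 1 was lower (Itga2b), with sums of 1251 to 1883 in ATRA and 1833 to 2539 in DMSO. The plasma cell, B and T cell, and neutrophil and monocyte lists were dim, with median DMSO means of 5.74, 5.61 and 6.02. The median log2 difference of all genes was 0.45 at a DMSO mean from 5 to 6 and 0.14 from 6 to 7. With the level trend removed, 0 markers of these lists passed (limma), with medians of 0.22, 0.15 and -0.12. Of the erythroid and megakaryocyte markers 1 was then higher, Pf4 (adjusted p = 0.0374). The part of these marker differences in the results below was not tested, and fewer cells of a type and less RNA per cell cannot be told apart in such bulk samples.

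The comparison of ATRA with DMSO asks here how the parts of the unfolded protein response differ with retinoic acid. Of the 36 genes, 20 fell, 0 rose and 16 did not pass, against 15.5% lower and 6.48% higher over all genes. Those that fell were 3 of 5 sensor genes, 3 of 7 genes of the ATF4 branch, 9 of 15 folding genes and 5 of 9 degradation and translocation genes. The median log2 difference was -1.51 over the 36 genes and 0.16 over all genes, and by group it was -2.01 for sensors, -1.08 for the ATF4 branch, -1.67 for folding and -2.02 for degradation and translocation. With the level trend removed these group medians were -0.35, 0.17, -0.27 and -0.58. The groups also differed in level, with median DMSO means of 9.37, 7.67, 9.33 and 8.28. All genes had a median log2 difference of -0.64 at a DMSO mean from 7 to 8, -1.33 from 8 to 9 and -1.94 from 9 to 10. Both ATRA values lay below all DMSO values in 29 of the 36 genes (29.2% of all genes) and above them in 1, Chac1 (33.0% of all genes). All 5 genes with a positive difference, Ddit3, Trib3, Chac1, Sec61b and Derl3, did not pass.

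**Figure D2:**
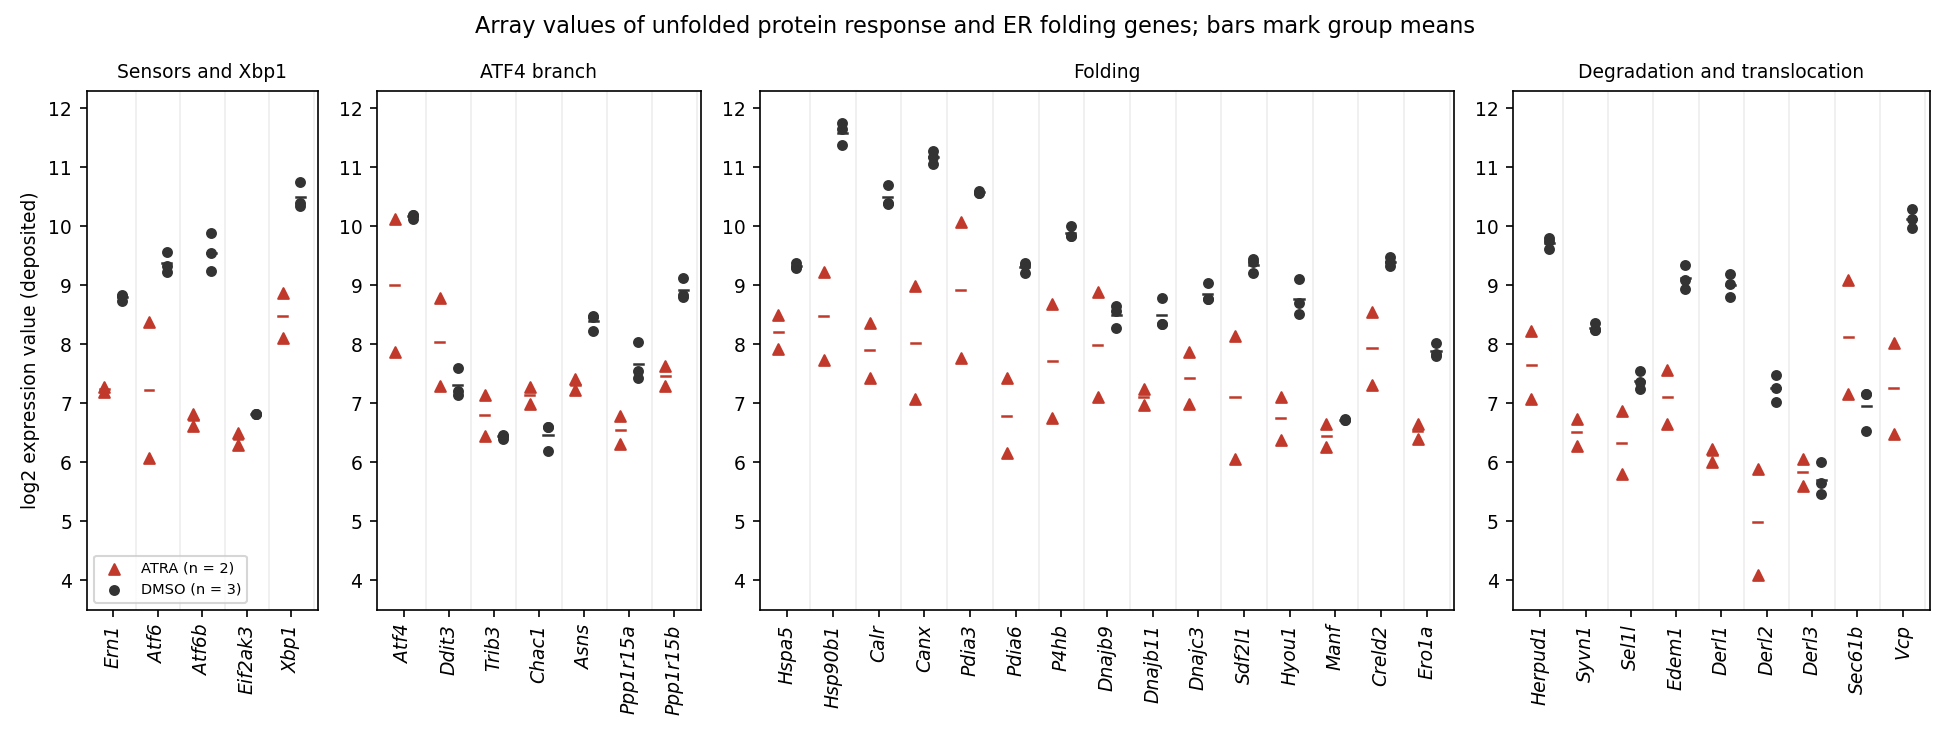
Deposited values (taken as log2) of the 36 genes by group, with a triangle per ATRA array, a circle per DMSO array and a bar at each group mean. The ATRA values lie below all DMSO values in 29 genes (29.2% of all genes) and above them in Chac1 (33.0% of all genes). Those of Ddit3, Trib3, Derl3, Sec61b, Dnajb9 and Atf4 overlap with the DMSO values. These shares are not matched for level, and all genes with a DMSO mean of 9 or more had a median log2 difference of -2.03.

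The share that fell varied with the level of the features in DMSO. Among the 17 genes with a DMSO mean of 9 or more, 11 fell, against 53.4% of the 1868 genes at that level, with medians of -2.17 and -2.03. Among the 8 with a DMSO mean from 8 to 9, 7 fell, against 52.4% of 2582 genes. From 7 to 8 it was 2 of 5, against 28.1% of 3409 genes, and of the 6 below 7, 0 fell and 0 rose, against 0.824% and 9.51% of 14321 genes. Removing the level trend left 0 of the 36 genes lower and 0 higher at an adjusted p of 0.05 (limma, 1.22% and 1.77% of all genes). At an unadjusted p under 0.05, 6 were then lower and 5 higher (12.4% and 10.7% of all genes), and the median was -0.28, against -0.024 over all genes.

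**Figure D3:**
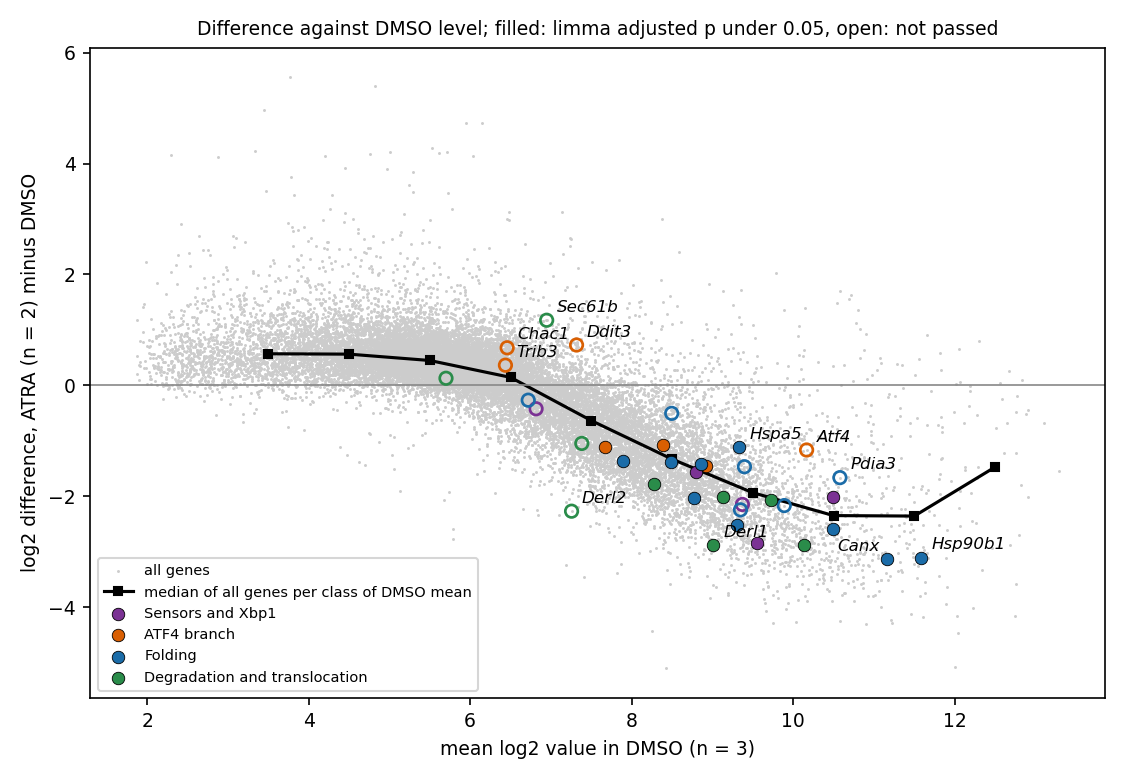
Log2 difference of ATRA minus DMSO against the mean log2 value in DMSO for all genes (grey), with the median of all genes per class of DMSO mean (black line) and the 36 genes in colour, filled where they passed. Of the 36 genes, 31 lie within 1 of the black line, Atf4, Ddit3 and Sec61b lie further above it, and Derl1 and Derl2 further below it.

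Of the sensors, the transcripts of Ern1 and Atf6b fell, as did that of Xbp1, while Atf6 and Eif2ak3 did not pass. Ern1, the sensor that splices Xbp1, was at 7.28 and 7.20 in the ATRA arrays, against 8.84, 8.73 and 8.81 in the DMSO arrays (log2 difference -1.56, SE 0.11, adjusted p = 0.00692), or 2.94-fold lower. The 2 ATRA values are close together and both lie below every DMSO value. Xbp1, its target, was at 8.86 and 8.10 in the ATRA arrays, against 10.39, 10.34 and 10.75 in the DMSO arrays (log2 difference -2.01, SE 0.29, adjusted p = 0.0169), again without overlap. With the level trend removed, Ern1 differed by -0.082 and Xbp1 by 0.31.

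Atf6 is the cleaved sensor and Atf6b its close relative, thought to act as a weaker activator. Atf6b was at 6.61 and 6.82 in the ATRA arrays, against 9.88, 9.24 and 9.55 in the DMSO arrays (log2 difference -2.84, SE 0.23, adjusted p = 0.00739), or 7.14-fold lower. Atf6 was at 8.37 and 6.07 in the ATRA arrays, against 9.32, 9.57 and 9.22 in the DMSO arrays (log2 difference -2.15, SE 0.71, adjusted p = 0.0979). Its ATRA arrays lie 2.30 apart, and replicate 1 is nearer to DMSO than to replicate 2. Trend removal left -0.94 for Atf6b (adjusted p = 0.318) and -0.35 for Atf6. Eif2ak3, the kinase PERK, was at 6.49 and 6.29 in the ATRA arrays, against 6.82, 6.82 and 6.82 in the DMSO arrays (log2 difference -0.42, SE 0.12, adjusted p = 0.0718). Its 3 DMSO values are the same to the last deposited digit, so its spread in DMSO is 0 and its test says little. With the level trend removed it differed by -0.38.

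The ATF4 branch differed from gene to gene. Asns, Ppp1r15a and Ppp1r15b fell, while Atf4, Ddit3, Trib3 and Chac1 did not pass, and the last 3 had positive differences. Atf4, the transcription factor of the branch, was at 10.13 and 7.87 in the ATRA arrays, against 10.19, 10.19 and 10.13 in the DMSO arrays (log2 difference -1.17, SE 0.69, adjusted p = 0.246). Replicate 1 of ATRA is at the level of DMSO and replicate 2 is far below it. Ddit3 (CHOP), a transcription factor gene that promotes cell death, was at 8.79 and 7.30 in the ATRA arrays, against 7.59, 7.15 and 7.21 in the DMSO arrays (log2 difference 0.73, SE 0.49, adjusted p = 0.279). Only replicate 1 lies above the DMSO values, and with replicate 1 left out the difference was -0.018.

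Chac1, which breaks down glutathione, was at 6.99 and 7.28 in the ATRA arrays, against 6.19, 6.59 and 6.59 in the DMSO arrays (log2 difference 0.68, SE 0.19, adjusted p = 0.0724), the sole gene of the 36 whose ATRA values both exceeded all DMSO values. Trib3, a pseudokinase that acts on ATF4 and Ddit3, was at 6.45 and 7.15 in the ATRA arrays, against 6.39, 6.45 and 6.46 in the DMSO arrays (log2 difference 0.36, SE 0.24, adjusted p = 0.27). Here replicate 1 lies among the DMSO values and replicate 2 above them. Without the level trend, values of 1.02 for Atf4 (adjusted p = 0.0557), 1.14 for Ddit3, 0.50 for Chac1 and 0.17 for Trib3 were obtained, none past the threshold.

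Asns, the asparagine synthetase that ATF4 induces, was at 7.40 and 7.22 in the ATRA arrays, against 8.47, 8.23 and 8.46 in the DMSO arrays (log2 difference -1.08, SE 0.15, adjusted p = 0.0152), or 2.11-fold lower. The phosphatase subunit genes that reverse the action of PERK fell as well. Ppp1r15a (GADD34), the stress-induced subunit, was at 6.79 and 6.31 in the ATRA arrays, against 8.04, 7.43 and 7.55 in the DMSO arrays (log2 difference -1.12, SE 0.27, adjusted p = 0.0486). Ppp1r15b (CReP), the constitutive one, was at 7.63 and 7.29 in the ATRA arrays, against 9.11, 8.84 and 8.81 in the DMSO arrays (log2 difference -1.46, SE 0.18, adjusted p = 0.0125). In these 3 genes the groups did not overlap, and trend removal left 0.13, -0.43 and 0.088.

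**Figure D4:**
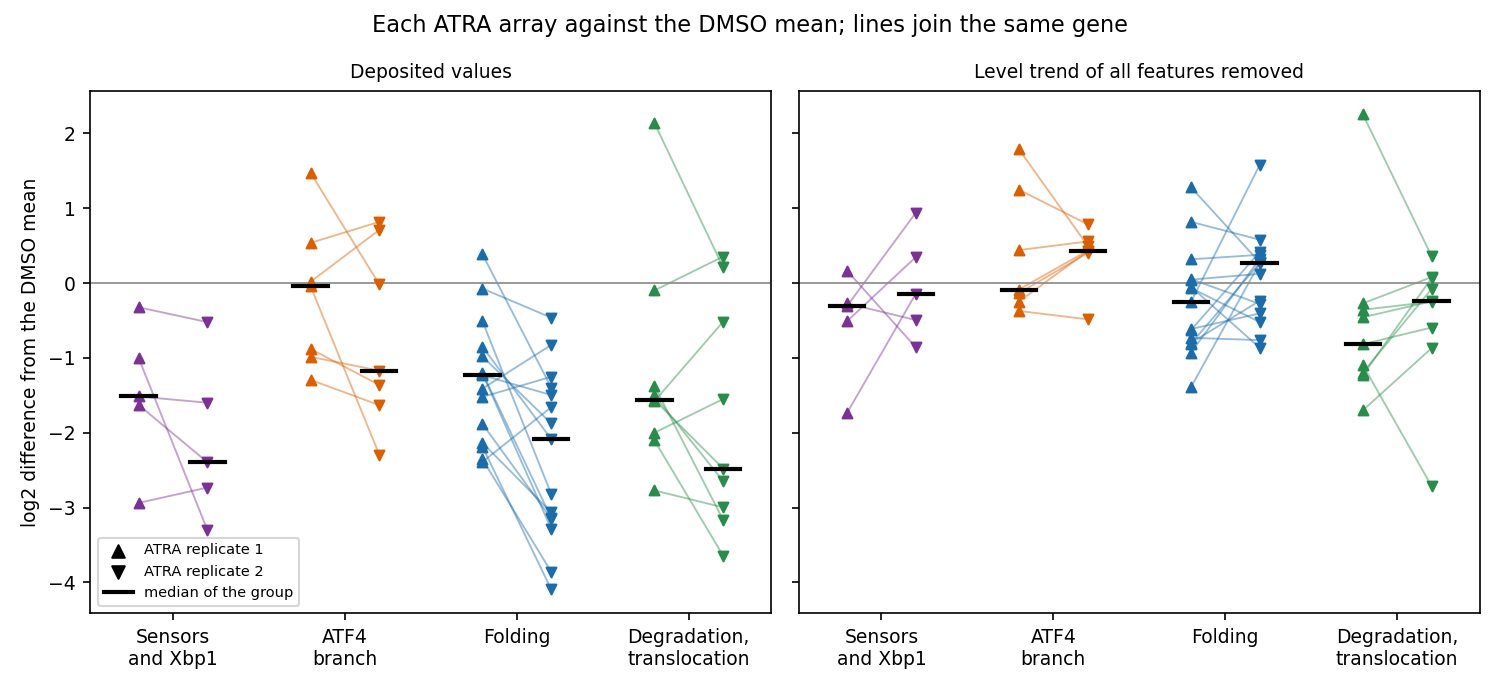
Difference of each ATRA array from the DMSO mean (log2) for the genes of each group, as deposited (left) and with the level trend removed (right), with lines joining a gene and black bars at group medians. As deposited, the medians of the ATF4 branch are -0.041 and -1.17 in replicates 1 and 2, against -1.23 and -2.08 for folding genes, and with the trend removed they are -0.087 and 0.43, against -0.26 and 0.27.

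Of the 15 folding genes, ER chaperones among them, 9 fell, against 15.5% of all genes. The median DMSO mean of the group was 9.33, and 57.5% of all genes with a DMSO mean from 9 to 10 fell. With the level trend removed 0 of the 15 passed (limma). Hspa5 (BiP), the main chaperone of the ER and a regulator of the sensors, was at 7.92 and 8.50 in the ATRA arrays, against 9.31, 9.29 and 9.38 in the DMSO arrays (log2 difference -1.12, SE 0.21, adjusted p = 0.0293), or 2.17-fold lower. It is 1 of the 9 genes of the 36 in which ATRA replicate 2 lies above replicate 1. Hsp90b1, the HSP90 of the ER, was at 9.23 and 7.73 in the ATRA arrays, against 11.75, 11.37 and 11.64 in the DMSO arrays (log2 difference -3.11, SE 0.48, adjusted p = 0.0201), or 8.62-fold lower, without overlap. With the level trend removed, Hspa5 differed by 0.66 and Hsp90b1 by -0.30, neither past the threshold.

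Calreticulin (Calr) and calnexin (Canx) are the lectins that hold newly made glycoproteins for folding, together with the disulfide isomerase Pdia3. Calr was at 8.36 and 7.43 in the ATRA arrays, against 10.71, 10.38 and 10.40 in the DMSO arrays (log2 difference -2.60, SE 0.32, adjusted p = 0.0128). Canx was at 8.98 and 7.07 in the ATRA arrays, against 11.06, 11.18 and 11.27 in the DMSO arrays (log2 difference -3.14, SE 0.59, adjusted p = 0.0302), the most negative difference of the 36 genes, and 8.81-fold lower. Their partner Pdia3 did not pass, with values of 10.07 and 7.76 in ATRA, against 10.60, 10.57 and 10.57 in DMSO (log2 difference -1.67, SE 0.71, adjusted p = 0.155). All 3 genes had both ATRA values below DMSO, but Pdia3 differed from the DMSO mean by -0.51 in replicate 1 and by -2.82 in replicate 2. Trend removal left -0.27 for Calr, -0.52 for Canx and 0.70 for Pdia3 (adjusted p = 0.0676).

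The other oxidative folding enzymes were Pdia6 and P4hb, disulfide isomerases, and Ero1a, the oxidase that recharges them. Pdia6 was at 7.42 and 6.16 in the ATRA arrays, against 9.37, 9.21 and 9.34 in the DMSO arrays (log2 difference -2.52, SE 0.40, adjusted p = 0.0213). Ero1a was at 6.65 and 6.39 in the ATRA arrays, against 8.03, 7.80 and 7.83 in the DMSO arrays (log2 difference -1.36, SE 0.15, adjusted p = 0.0107). These fell without overlap of the groups, while P4hb did not pass, at 8.69 and 6.75 in ATRA, against 9.83, 9.83 and 10.01 in DMSO (log2 difference -2.17, SE 0.60, adjusted p = 0.0677). After trend removal Pdia6 stood at -0.75 (adjusted p = 0.0531), Ero1a at -0.51 and P4hb at -0.11. A dimmer feature of Ero1a, not chosen, had 1 value in 4 of the 5 arrays and differed by 0.038.

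Cofactors of BiP differed in whether they passed the threshold, not in the sign of the difference. Hyou1, its nucleotide exchange factor, fell (6.38 and 7.11 in ATRA, against 9.11, 8.51 and 8.70 in DMSO; log2 difference -2.02, SE 0.31, adjusted p = 0.0193). Dnajb11, a J-domain partner that hands substrates to BiP, fell too (6.97 and 7.24 in ATRA, against 8.78, 8.35 and 8.35 in DMSO; log2 difference -1.39, SE 0.20, adjusted p = 0.0173), as did Dnajc3, another J-domain protein and an inhibitor of PERK (7.88 and 6.98 in ATRA, against 8.76, 8.76 and 9.04 in DMSO; log2 difference -1.43, SE 0.31, adjusted p = 0.0397). Groups did not overlap in any of these. Dnajb9, the J-domain protein that restrains IRE1, did not pass, at 8.88 and 7.10 in ATRA, against 8.57, 8.65 and 8.27 in DMSO (log2 difference -0.51, SE 0.56, adjusted p = 0.481), and its DMSO values lie between both ATRA values. Sdf2l1, found in complexes with Dnajb11, did not pass either, at 8.14 and 6.06 in ATRA, against 9.44, 9.39 and 9.21 in DMSO (log2 difference -2.25, SE 0.64, adjusted p = 0.0724), with 2.08 between its ATRA arrays.

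The small stress-induced proteins Manf and Creld2 complete the folding group. Creld2 was at 8.54 and 7.31 in the ATRA arrays, against 9.47, 9.32 and 9.40 in the DMSO arrays (log2 difference -1.47, SE 0.39, adjusted p = 0.0622), and Manf at 6.65 and 6.26 in the ATRA arrays, against 6.73, 6.71 and 6.71 in the DMSO arrays (log2 difference -0.27, SE 0.16, adjusted p = 0.244). In both the ATRA values lay below all DMSO values, by a small margin in Manf, and neither passed. With the level trend removed, the difference was -0.56 for Hyou1, -0.11 for Dnajb11, 0.084 for Dnajc3, 0.78 for Dnajb9, -0.46 for Sdf2l1, 0.35 for Creld2 and -0.29 for Manf. The folding group as a whole then had 10 negative and 5 positive differences, against 15 and 0 as deposited.

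Of the 9 degradation and translocation genes 5 fell, from the ubiquitin ligase to the ATPase that extracts its substrates. The median DMSO mean of the group was 8.28, and 52.4% of all genes with a DMSO mean from 8 to 9 fell. Syvn1 (HRD1), the ligase of ER-associated degradation, was at 6.28 and 6.73 in the ATRA arrays, against 8.24, 8.36 and 8.23 in the DMSO arrays (log2 difference -1.78, SE 0.18, adjusted p = 0.00916). Its adaptor Sel1l did not pass, at 5.80 and 6.87 in ATRA, against 7.55, 7.24 and 7.35 in DMSO (log2 difference -1.05, SE 0.35, adjusted p = 0.1). Herpud1, which organises the ligase complex and is a classical stress-induced gene, was at 8.22 and 7.08 in the ATRA arrays, against 9.62, 9.79 and 9.75 in the DMSO arrays (log2 difference -2.07, SE 0.37, adjusted p = 0.0264), or 4.21-fold lower. Edem1, which marks misfolded glycoproteins, was at 7.56 and 6.65 in the ATRA arrays, against 9.35, 8.94 and 9.09 in the DMSO arrays (log2 difference -2.02, SE 0.32, adjusted p = 0.0213). In all 4 genes the ATRA values lay below the DMSO values, and trend removal left -0.64 for Syvn1, -0.58 for Sel1l, -0.096 for Herpud1 and -0.35 for Edem1.

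Derlins are membrane proteins through which substrates leave the ER. Derl1 was at 6.23 and 6.00 in the ATRA arrays, against 9.02, 9.19 and 8.80 in the DMSO arrays (log2 difference -2.88, SE 0.17, adjusted p = 0.00627), or 7.39-fold lower. It had the smallest p of the 36 genes, and its difference with the level trend removed was -1.29 (adjusted p = 0.0826). Derl2 was at 5.88 and 4.09 in the ATRA arrays, against 7.48, 7.26 and 7.02 in the DMSO arrays (log2 difference -2.27, SE 0.57, adjusted p = 0.0555), with the ATRA arrays 1.79 apart, and it had the most negative difference after trend removal, -1.90 (adjusted p = 0.107). Derl3, a form found mainly in secretory tissues, was at 5.60 and 6.05 in the ATRA arrays, against 5.46, 6.00 and 5.64 in the DMSO arrays (log2 difference 0.13, SE 0.24, adjusted p = 0.674), and the groups overlapped. With the trend removed it differed by -0.30.

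Vcp, the ATPase that pulls substrates into the cytosol, was at 8.03 and 6.49 in the ATRA arrays, against 10.29, 9.97 and 10.13 in the DMSO arrays (log2 difference -2.87, SE 0.49, adjusted p = 0.0245), or 7.32-fold lower. Sec61b, a subunit of the channel through which proteins enter the ER, was at 9.09 and 7.16 in the ATRA arrays, against 7.16, 7.16 and 6.53 in the DMSO arrays (log2 difference 1.17, SE 0.63, adjusted p = 0.226). Replicate 1 of ATRA is high, while replicate 2 repeats the value of DMSO replicates 1 and 2 to the last digit. Trend removal left -0.71 for Vcp and 1.31 for Sec61b.

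Other features of 5 of the 36 genes did not always show the same. A second feature of Vcp stood at 8.86 and 8.51 in ATRA, against 8.74, 8.50 and 8.22 in DMSO (log2 difference 0.20), where the chosen one fell by 2.87 on the log2 scale. A second feature of Sec61b stood at 6.23 and 5.68 in ATRA, against 6.30, 7.04 and 6.30 in DMSO (log2 difference -0.59), so that its direction depends on the feature. The second features of Edem1 and Derl2 were dim and differed by 0.32 and -0.10. None of these features passed in a test over all features. A repeated value among the 5 arrays occurred in 8 of the 36 genes and in 38.6% of all features. Besides Eif2ak3 and Sec61b, ATRA replicate 1 repeats a DMSO value in Atf4 and Trib3. DMSO replicates 2 and 3 share a value in Chac1, Dnajb11 and Manf, and DMSO replicates 1 and 2 in Dnajc3, which narrows the spread behind their tests.

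The 93 measured genes of the same pathway that are not among the 36 were counted from lists written with earlier results of these arrays known. Of the 93, 41 fell and 2 rose, against 15.5% and 6.48% of all genes. Their median DMSO mean was 8.44, and 52.4% of all genes with a DMSO mean from 8 to 9 fell. Of 15 regulators, 9 fell and 0 rose, with a median of -1.38 and a median DMSO mean of 8.04. The smallest p were those of Eif2ak1, a heme-regulated eIF2-alpha kinase (6.13 and 6.23 in ATRA, against 8.36, 8.12 and 8.21 in DMSO; log2 difference -2.04, SE 0.13, adjusted p = 0.00658), and Eif2b5, a subunit of the exchange factor that this phosphorylation blocks (6.27 and 6.19 in ATRA, against 8.67, 8.29 and 8.35 in DMSO; log2 difference -2.21, SE 0.16, adjusted p = 0.00697). Mbtps1, the protease that cleaves ATF6, also fell (log2 difference -1.46, adjusted p = 0.00959), a gene named after its value was seen. Both ATRA values of these 3 genes lay below all DMSO values. With the level trend removed none of the 3 passed, at -0.94, -0.96 and -0.23.

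Of 16 other targets or partners of ATF4, 3 fell, 1 rose and 12 did not pass, with a median of -0.40. Their median DMSO mean was 7.09, and over all genes 15.5% fell and 6.48% rose. Of all genes with a DMSO mean from 7 to 8, 28.1% fell and 1.17% rose, and from 6 to 7 it was 2.65% and 4.36%. Aldh18a1, an enzyme of proline synthesis, was at 6.45 and 6.25 in the ATRA arrays, against 8.20, 8.11 and 8.20 in the DMSO arrays (log2 difference -1.83, SE 0.13, adjusted p = 0.00675). Slc7a5, a transporter of large neutral amino acids, was at 7.74 and 6.62 in the ATRA arrays, against 9.92, 9.94 and 9.74 in the DMSO arrays (log2 difference -2.68, SE 0.36, adjusted p = 0.0152). Slc3a2, its partner chain, fell as well (log2 difference -2.09), and Cebpb, a transcription factor gene, was the 1 that rose, at 7.20 and 7.41 in ATRA, against 6.79, 6.72 and 6.80 in DMSO (log2 difference 0.53, SE 0.12, adjusted p = 0.0468). The last 2 were named after their values were seen. Without the level trend, 0 of the 16 were called in either direction (limma), with -0.76 for Aldh18a1, -0.64 for Slc7a5, -0.49 for Slc3a2 and 0.54 for Cebpb.

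Of 30 other folding and glycosylation genes, 13 fell and 0 rose, with a median of -1.34. Their median DMSO mean was 8.73, and 52.4% of all genes with a DMSO mean from 8 to 9 fell (15.5% of all genes). Lman2, a cargo lectin (7.36 and 7.04 in ATRA, against 10.16, 9.96 and 9.91 in DMSO; log2 difference -2.81, SE 0.16, adjusted p = 0.00627), and Stt3a, the catalytic subunit of an oligosaccharyltransferase (7.79 and 7.28 in ATRA, against 10.77, 10.32 and 10.55 in DMSO; log2 difference -3.01, SE 0.23, adjusted p = 0.00707), had the smallest p, and with the level trend removed neither passed (-0.70 and -0.66). Of 32 other translocation and degradation genes, 16 fell, 1 rose and 15 did not pass, with a median of -1.33 and a median DMSO mean of 8.79, again beside 52.4% lower at that level. Erlin1, a membrane scaffold for degradation, fell (5.87 and 5.29 in ATRA, against 8.41, 8.17 and 8.45 in DMSO; log2 difference -2.76, SE 0.22, adjusted p = 0.00739) and passed with the level trend removed too (-1.58, adjusted p = 0.0211). Os9, a lectin of degradation, was at 7.66 and 7.31 in the ATRA arrays, against 9.74, 9.45 and 9.86 in the DMSO arrays (log2 difference -2.20, SE 0.20, adjusted p = 0.00791), a fall that ended with the trend removed (-0.24). The 1 that rose was Spcs1, a signal peptidase subunit, named after its value was seen. It was at 9.87 and 9.60 in the ATRA arrays, against 8.51, 8.41 and 8.40 in the DMSO arrays (log2 difference 1.29, SE 0.14, adjusted p = 0.0103), and with the trend removed it differed by 2.54 (adjusted p = 0.0142). In that setting 5 of the 93 genes were higher and 3 lower, against 1.77% and 1.22% of all genes.

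**Figure D5:**
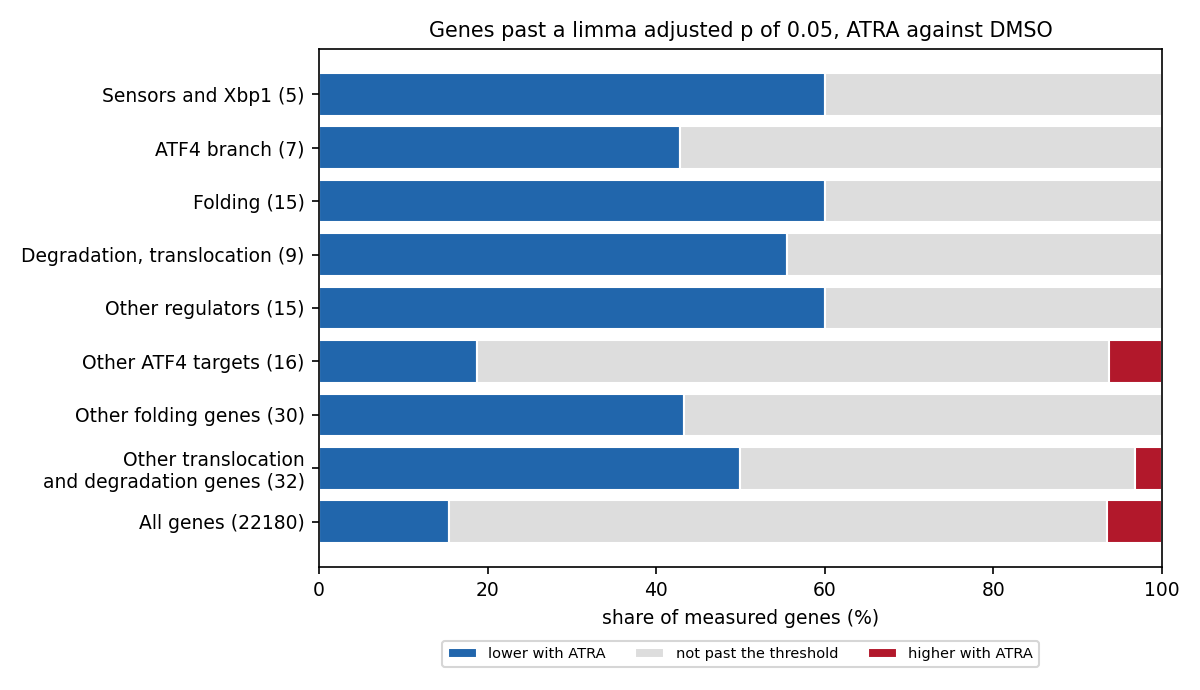
Share of measured genes (number in brackets) past a limma adjusted p of 0.05 in each group of the 36 genes, in 4 lists of other genes of the pathway and over all 22180 genes. Bars of the lists run from 3 of 16 lower for other ATF4 targets to 9 of 15 lower for folding genes and for other regulators and 3 of 5 for sensors. Over all genes 15.5% fell, a share not matched for level. By DMSO mean, 28.1% of all genes fell from 7 to 8, 52.4% from 8 to 9 and 57.5% from 9 to 10.

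The calls rest on few arrays. Without any 1 of the DMSO arrays 0 of the 36 genes and 0 of all genes passed (limma), although 20 to 22 of the 36 were lower and 1 higher at an unadjusted p under 0.05, against 17.3% to 17.8% and 9.06% to 9.71% of all genes. Without ATRA replicate 1, 30 were lower and 1 higher (30.6% and 33.5% of all genes), and without ATRA replicate 2, 27 were lower and 2 higher (21.3% and 13.3%), with the lone ATRA array assumed to vary like the DMSO arrays. The count of 20 was 10 after quantile normalization (7.86% of all genes), 6 after cyclic loess normalization (6.78%) and 25 with each array centred on its median (20.5%). It was 21 with dim features left out (29.6%), 20 with an intensity trend and robust prior (14.7%), 19 with the mean of a gene's features (15.1%) and 18 when all features were tested (8.71%). At an adjusted p under 0.1, 26 were lower (21.1%) and 1 higher, Chac1 (13.9%). With the replicate number as a block, or with array weights, 0 of all genes passed (limma), and in each of these fits 24 of the 36 were lower and 0 higher at an unadjusted p under 0.05, against 17.2% and 7.20% of all genes with the block and 15.6% and 4.16% with the weights. The smallest p of an exact two-sided permutation test of 2 arrays against 3 is 0.1.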

How the data were processed

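RNA of sorted HSCs was measured on 5 Affymetrix arrays. The authors deposited expression values, 1 per array feature, which were assumed to be log2 values because the processing notes name RMA. The submitters' processing notes list oligo 1.36.1, limma 3.28.20 and RMA without roles. The sources used here do not name the array annotation or the genome build. Whether all arrays were normalized in 1 run is unknown. Arrays give no read depth, and their number limits precision.

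Of 41345 features, 23521 name 1 gene in the platform annotation (symbols updated by gene identifier), 1814 several and 16010 none. Each gene took the feature with the highest mean over the 5 arrays, unfiltered, as for all 36 genes here. ATRA was compared with DMSO by limma 3.58.1 (R 4.3.3; lmFit, eBayes, two-sided, 3 residual and 1.52 prior degrees of freedom), with Benjamini-Hochberg adjustment over 22180 genes and a threshold of 0.05. Every adjusted p comes from this test. Its code was checked on simulated arrays with known changes, the spread of the DMSO arrays in both groups and no level trend. That check does not cover the level trend or the lower correlation of the ATRA arrays. A log2 difference understates changes of dim features. For trend removal, a lowess curve (span 0.3) of each array's difference from the DMSO mean on that mean was subtracted. Other alternatives stand in the closing section.

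All 36 genes are named, with, of each other pathway list, the 2 genes of smallest p. Genes, lists and settings were chosen with earlier results of these data known.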

Additional observations from a re-analysis of the deposited data

How the results depend on the processing

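The count of 20 lower genes stayed within 18 to 26 with each array centred on its median, dim features left out, an intensity trend and robust prior, the mean of a gene's features, all features tested, or an adjusted p under 0.1, which added 1 higher gene. It was 10 after quantile normalization and 6 after cyclic loess, those being Canx, Pdia6, Ero1a, Edem1, Derl1 and Vcp. It was 0 with the level trend removed (at an unadjusted p under 0.05, 6 lower and 5 higher, against 12.4% and 10.7% of all genes), with array weights (24 lower, 15.6%) and with the replicate block (24 lower, 17.2%), in limma throughout. The cause was not tested. Leaving out 1 array gave 0 to 30 lower and 0 to 2 higher genes, with medians from -1.77 to -1.26. The median of -1.51 was -1.04 after quantile normalization, -1.78 with centred arrays, -0.50 after cyclic loess and -0.28 with the level trend removed.

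Some log2 differences changed sign. With the level trend removed these were Xbp1 (0.31), Atf4 (1.02), Asns (0.13), Ppp1r15b (0.088), Hspa5 (0.66), Pdia3 (0.70), Dnajb9 (0.78), Dnajc3 (0.084), Creld2 (0.35) and Derl3 (-0.30). After cyclic loess they were Atf4 (0.65), Hspa5 (0.42), Pdia3 (0.22), Dnajb9 (0.74), Creld2 (0.036) and Derl3 (-0.33). Derl3 also did so with centred arrays (-0.14) and after quantile normalization (-0.20), and Dnajb9 after quantile normalization (0.014). With 1 array left out, 3 genes changed sign, with ranges of -0.018 to 1.47 for Ddit3, -1.40 to 0.38 for Dnajb9 and -0.10 to 0.35 for Derl3. The replicate numbers 1 and 2 occur in both groups. Deviations of same-numbered arrays correlated at 0.134 and 0.0983 across genes, and those of ATRA replicate 2 and DMSO replicate 3 at 0.0710. With 2 ATRA arrays, the correlations of 1 are those of the other with opposite sign, so these values cannot show a pairing. With the replicate block the median was -1.53.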
